A study of Mus musculus with 14 samples.

Results

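The 10 genes described here are the transcription factor gene Nfe2l2, which encodes NRF2, its repressor gene Keap1, and 8 genes that NRF2 is known to drive: Nqo1, Hmox1, Gclc, Gclm, Txnrd1, Srxn1, Slc7a11 and Ugdh. They were taken by gene symbol from the 24675 probe sets that the platform annotation gives a single gene, and each of the 10 had 1 probe set. NRF2 directs the cell's answer to oxidants and electrophiles. At rest, KEAP1 holds NRF2 for ubiquitination by a CUL3 ligase and NRF2 is degraded; when the cysteines of KEAP1 are modified, NRF2 accumulates, pairs with a small MAF protein and binds antioxidant response elements. The autophagy receptor p62, encoded by Sqstm1, also binds KEAP1 and is itself removed by autophagy, and in mouse liver the loss of Atg7 is known to let p62 and NRF2 target products accumulate. In the intestine the pathway supplies glutathione, thioredoxin reduction and conjugating enzymes to an epithelium that meets dietary and microbial electrophiles.

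Each of 14 samples was hybridised to its own Affymetrix Mouse Gene 2.0 ST array. The Atg7KO mice carried floxed Atg7 alleles together with the Lgr5-EGFP-IRES-CreERT2 cassette, and the WT mice carried the cassette alone, so that both genotypes expressed EGFP and an inducible Cre from Lgr5 and both received tamoxifen. Treatment lasted 5 days and cells were taken 1 month after it. Cells of dissociated crypts that were low for CD24 fell into an EGFP high gate, named intestinal stem cells in the labels, and an EGFP low gate, named their transit amplifying progeny. Cre was active only where Lgr5 was expressed, so that EGFP low cells with little Lgr5 could carry the deletion through descent from recombined Lgr5 cells, and the labels do not give the share of recombined cells. The groups were Atg7KO-High (3 samples), WT-High (3), Atg7KO-Low (4) and WT-Low (4). Per the labels each sample came from an individual mouse, but it is not stated whether title numbers are mouse numbers. The labels state neither a strain background nor an age.

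Antioxidant response elements share the core TGACNNNGC, where N is any base. RefSeq promoter windows, from 250 bases before to 50 bases after a transcription start, were found for 8 of the 10 genes (build GRCm38.p6). Windows of Hmox1 and Gclc were not analysed here. A match on either strand was present for 5 of the 8 genes, or 62.5%, against 16.41% of the 12119 tested genes that have a window and 12.39% of all 32851 windows. The matches are printed below because they show which of the genes carry this short sequence next to their start. Each run is read 5′ to 3′ on the gene's own strand, the 9 capitals mark the core or its reverse complement, and 10 bases are shown on each side.
Nfe2l2: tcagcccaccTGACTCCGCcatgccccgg
Gclm: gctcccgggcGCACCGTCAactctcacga
Txnrd1: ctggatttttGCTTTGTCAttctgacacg
Srxn1: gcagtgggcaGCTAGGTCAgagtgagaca
Ugdh, first match: gcggagcccgTGACTTAGCtggagctgat
Ugdh, second match: tcctcaagggGCGTGGTCAtacagttcgg
The run of Nfe2l2 lies at chr2:75704885-75704913 on the minus strand and that of Gclm at chr3:122245413-122245441 on the plus strand. The run of Txnrd1 lies at chr10:82859104-82859132 and that of Srxn1 at chr2:152105542-152105570, both on the plus strand. Ugdh had matches at chr5:65435956-65435984 and chr5:65435918-65435946 on the minus strand. Counted from the start, with negative positions before it, the first base of the capitals stood at -240 in Nfe2l2, -134 in Gclm, -92 in 1 of the 3 windows of Txnrd1, and -132 and -94 in Ugdh. In Srxn1 it stood at 29, after the start. The windows of Keap1, Nqo1 and Slc7a11 held no match, which says only that these letters are absent from those windows.

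Levels are the authors' log2 values on the RMA scale, and a difference is a log2 difference from a limma fit of the 4 group means over all 14 arrays. A gene was tested if 3 or more arrays had it at or above their 40th percentile, as 15873 genes did, and was called at an adjusted p under 0.05 over all of them. Of the 10 genes 8 passed, each on 14 of 14 arrays. Hmox1 and Slc7a11 passed on 0 arrays and were not tested. The labels were checked against Atg7 and Lgr5. Atg7 read 5.91 to 6.37 in Atg7KO-High, 6.76 to 6.83 in WT-High, 5.65 to 6.06 in Atg7KO-Low and 6.46 to 7.49 in WT-Low samples, so it was lower on each knockout array than on the wild-type arrays of either gate, although limma did not call it (adjusted p = 0.208 in EGFP high and 0.166 in EGFP low cells). Lgr5 read 8.69 to 9.30 in EGFP high and 4.65 to 6.25 in EGFP low samples. Arrays differed in spread: the SD of the log2 values within 1 array was 1.90 to 1.98 in Atg7KO-High, 1.99 to 2.06 in WT-High, 1.98 to 2.04 in Atg7KO-Low and 1.90 to 2.06 in WT-Low samples, narrowest on Atg7KO-High-356 and WT-Low-411. Y-linked genes averaged 6.46 to 7.05 on 5 arrays, Atg7KO-High-348, WT-High-388, Atg7KO-Low-353, WT-Low-407 and WT-Low-409. They averaged 2.67 to 3.06 on the other arrays, so every group held arrays with and without this signal. Arrays give no read depth, so their number limits the precision.

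**Figure D1:**
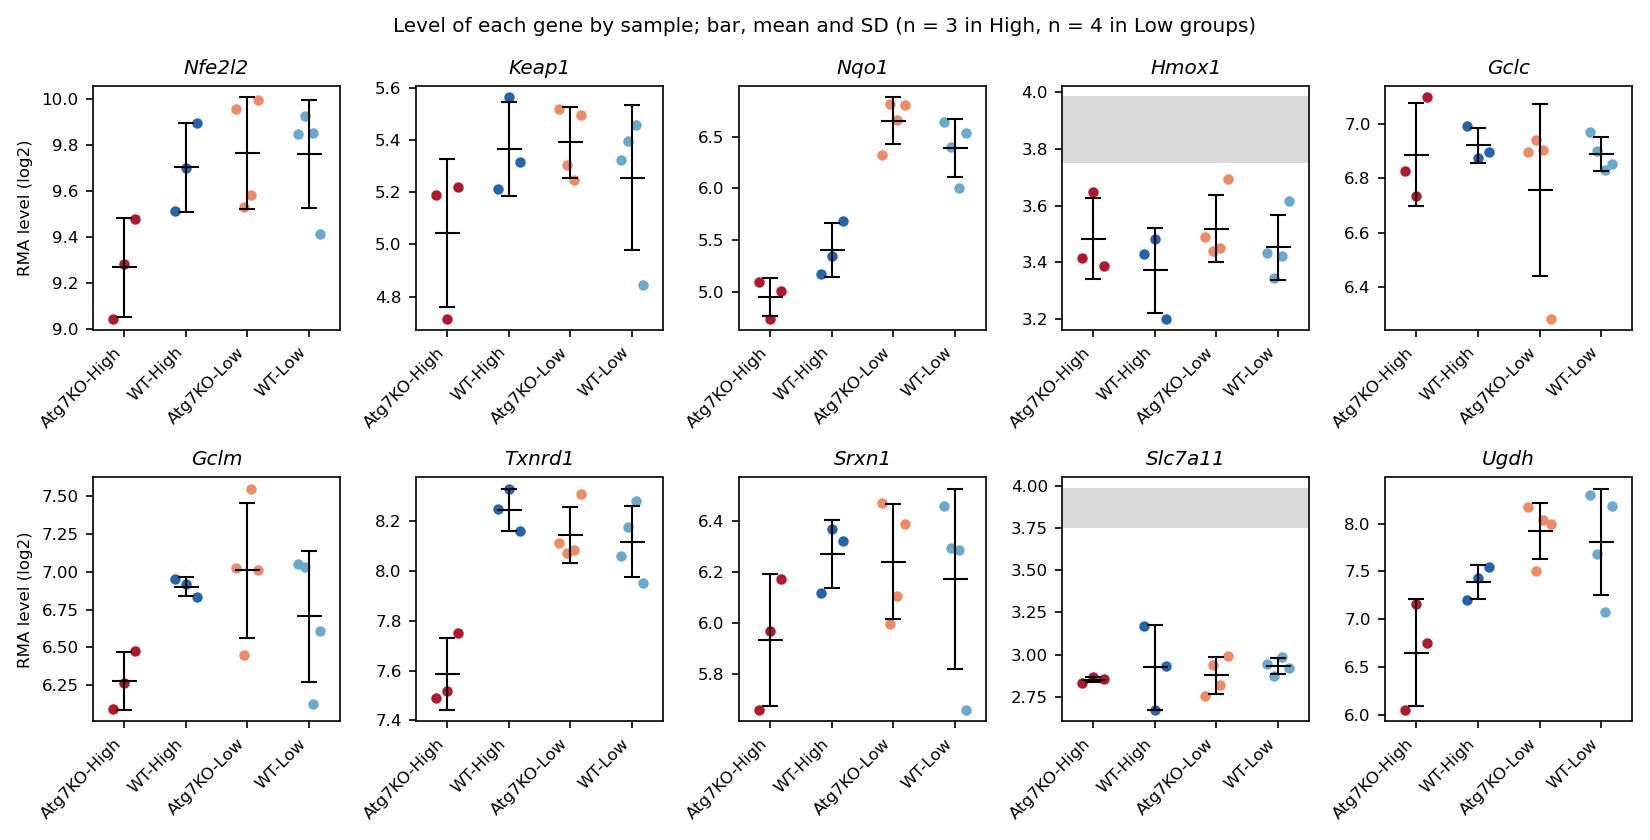
Log2 RMA level of each of the 10 genes in every sample, by group; points are samples, the long bar is the group mean and the whiskers are the SD (n = 3 in the High groups, n = 4 in the Low groups). The grey band, 3.75 to 3.98, is the range over arrays of the expression threshold; Hmox1 and Slc7a11 lie under it, and the 3 Atg7KO-High points of Txnrd1 lie under the other 11.

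The first comparison asks whether loss of Atg7 shifted the pathway in the stem cell gate. In Atg7KO-High samples all 8 tested genes had lower means than in WT-High samples, where 53.8% of all tested genes were lower. No gene of the 8 was called, and 0.0126% of all genes were called. In 5 of the 8, namely Nfe2l2, Nqo1, Gclm, Txnrd1 and Ugdh, every Atg7KO-High array read lower than every WT-High array, which 15.2% of all genes did. The same 5 had an unadjusted p under 0.05, against 9.88% of all genes lower at that level. The median difference of the 8 was -0.45, against -0.03 over all genes tested. In bulk samples fewer cells of a type and less RNA per cell cannot be told apart.

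Among the regulators, Nfe2l2 read 9.04, 9.28 and 9.48 in Atg7KO-High-356, Atg7KO-High-348 and Atg7KO-High-386, against 9.51, 9.70 and 9.90 in WT-High-388, WT-High-411 and WT-High-412. The 2 groups did not overlap, but the highest knockout sample stood next to the lowest wild-type one. The difference was -0.43 (SE 0.19, adjusted p = 0.291), or 0.740-fold. Keap1, the adaptor that hands NRF2 to the ligase, read 5.19, 4.72 and 5.22 in the same knockout samples, against 5.21, 5.56 and 5.32 in wild type. The ranges overlapped by a narrow margin, Atg7KO-High-348 was the lowest, and the difference was -0.32 (SE 0.19, adjusted p = 0.419). The gene of the factor and the gene of its repressor had differences of the same sign, as all 8 tested genes did, and neither was called.

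Nqo1 encodes a quinone reductase that spares cells the radicals of redox cycling, and it is the usual reporter gene of NRF2 activity. It read 5.09, 4.74 and 5.01 in Atg7KO-High samples, against 5.17, 5.35 and 5.69 in WT-High samples. The groups did not overlap, and the difference was -0.46 (SE 0.20, adjusted p = 0.295), or 0.729-fold.

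Glutathione is made by glutamate-cysteine ligase, with a catalytic subunit encoded by Gclc and a modifier subunit encoded by Gclm. Gclm read 6.09, 6.26 and 6.48 in Atg7KO-High samples, against 6.95, 6.92 and 6.83 in WT-High samples. The knockout samples were all lower, and the difference was -0.62 (SE 0.27, adjusted p = 0.278), or 0.649-fold. Gclc read 6.83, 6.73 and 7.10 in Atg7KO-High samples, against 6.99, 6.87 and 6.90 in WT-High samples. Its groups overlapped, with Atg7KO-High-386 the highest of the 6, and the difference was -0.03 (95% CI -0.41 to 0.34, adjusted p = 0.940). The 2 subunit genes therefore read differently in this gate, although the difference between them was not tested.

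Thioredoxin reductase 1, encoded by Txnrd1, returns electrons to thioredoxin, and sulfiredoxin, encoded by Srxn1, repairs overoxidised peroxiredoxins. Txnrd1 read 7.49, 7.52 and 7.75 in Atg7KO-High samples, against 8.25, 8.33 and 8.16 in WT-High samples. The groups stood well apart, and the unadjusted p of 3.2e-04 was the smallest of the 8 genes. The difference was -0.66 (SE 0.14, adjusted p = 0.131), or 0.632-fold. Srxn1 read 5.66, 5.97 and 6.17 in Atg7KO-High samples, against 6.12, 6.37 and 6.32 in WT-High samples. Atg7KO-High-386 overlapped WT-High-388, and the difference was -0.34 (SE 0.21, adjusted p = 0.447).

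Ugdh encodes UDP-glucose dehydrogenase, which makes the UDP-glucuronate used for glucuronidation. It read 6.05, 7.16 and 6.75 in Atg7KO-High samples, against 7.20, 7.43 and 7.55 in WT-High samples. The knockout samples were all lower but spread widely, with Atg7KO-High-348 near the wild-type range and Atg7KO-High-356 the lowest. The difference was -0.74 (SE 0.31, adjusted p = 0.278), or 0.598-fold, and was -0.44 without Atg7KO-High-356.

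Hmox1, the haem-degrading enzyme, and Slc7a11, the cystine importer, stayed below the expression threshold of every array. Hmox1 read 3.39 to 3.65 in Atg7KO-High, 3.20 to 3.48 in WT-High, 3.44 to 3.69 in Atg7KO-Low and 3.34 to 3.62 in WT-Low samples. Slc7a11 read 2.83 to 2.86 in Atg7KO-High, 2.67 to 3.17 in WT-High, 2.75 to 2.99 in Atg7KO-Low and 2.88 to 2.99 in WT-Low samples. Knockout and wild-type ranges overlapped for both genes in both gates.

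**Figure D2:**
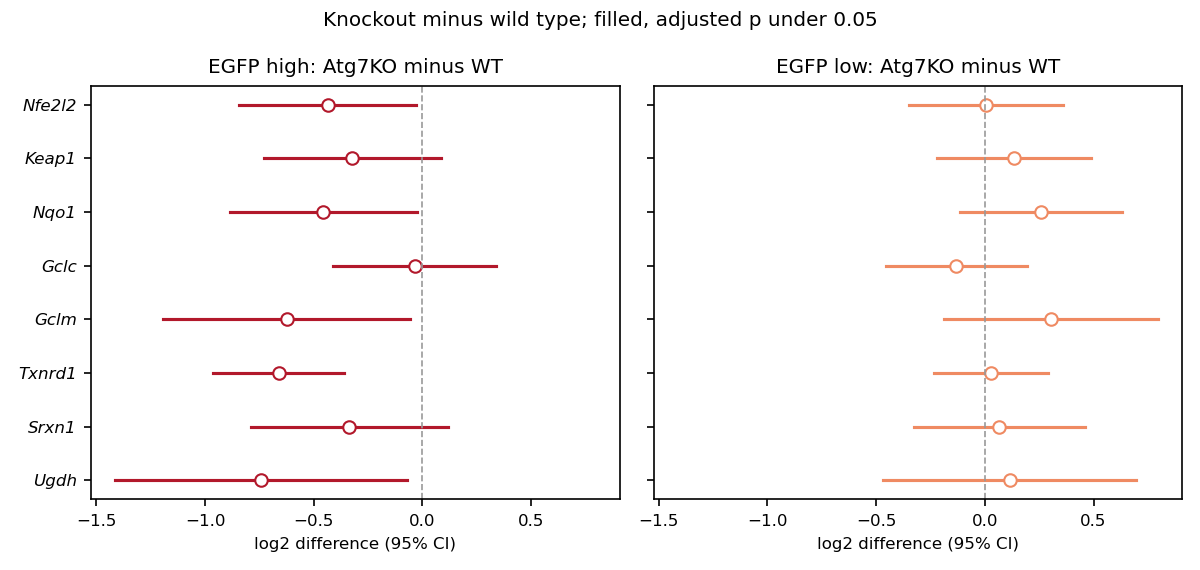
Log2 difference of Atg7KO minus WT for the 8 tested genes, in EGFP high cells (left) and EGFP low cells (right); points are limma estimates, lines their 95% confidence intervals, and open points were not called. In EGFP high cells all 8 points lie left of 0 and 5 intervals exclude it, whereas in EGFP low cells all 8 intervals include 0.

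For the 3 against 3 samples of this gate the exact two-sided permutation test of a single gene cannot go below p = 0.1, and Nfe2l2, Nqo1, Gclm, Txnrd1 and Ugdh each reached that floor. The count of 5 genes at an unadjusted p under 0.05 rested on the set of arrays and the scaling. It was 2 without Atg7KO-High-356 or Atg7KO-High-348, 1 without WT-High-411 or WT-High-412, 2 with a further quantile normalization and 1 with cyclic loess.

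The spread of the arrays moved with these genes. Over the 14 arrays the level of Srxn1 correlated with the array SD at r = 0.86, Nfe2l2 at 0.84, Keap1 at 0.79 and Txnrd1 at 0.78, whereas Gclm was at 0.50, Ugdh at 0.40, Nqo1 at 0.36 and Gclc at -0.02. The points are arrays, and both measures of a point come from the same array and its normalization. With the array SD as a covariate in the fit, 6 of the 8 differences were negative and their median was -0.23. Nfe2l2 was then at -0.04, Keap1 at 0.02 and Srxn1 at 0.15, while Txnrd1 was at -0.50, Ugdh at -0.75, Gclm at -0.53 and Nqo1 at -0.43. The array SD is itself lower in the Atg7KO-High group, so the covariate and the genotype share part of their variation.

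Marker lists of other cell types differed in direction in this gate. The mean level of 8 goblet cell markers was 8.39 to 10.3 in Atg7KO-High and 9.90 to 10.4 in WT-High samples, and that of 10 enterocyte markers was 8.16 to 8.35 in Atg7KO-High and 8.36 to 9.53 in WT-High samples. Paneth cell markers averaged 8.52 to 10.0 in Atg7KO-High and 9.92 to 10.6 in WT-High samples. The median difference was -0.93 for goblet, -0.59 for Paneth cell and -0.52 for enterocyte markers, but 0.01 for 8 enteroendocrine and 0.18 for 5 tuft cell markers, and 0 markers of these lists were called. At an unadjusted p under 0.05, 4 of 8 goblet, 4 of 7 Paneth cell and 3 of 10 enterocyte markers were lower, where 9.88% of all genes were. At that level 2 of 5 tuft cell markers were higher and 0 lower, and the share of all genes that were higher is not given here. Leukocyte markers averaged 4.10 to 4.26 in Atg7KO-High and 3.96 to 4.29 in WT-High samples, and stem cell markers 8.80 to 9.05 in Atg7KO-High and 8.91 to 8.99 in WT-High samples. The part of the marker lists in the differences of the 8 genes was not tested.

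In EGFP low cells no genotype difference was called for these genes. Of the 8 genes 7 had higher means in Atg7KO-Low than in WT-Low samples, where 50.3% of all genes did, and the median was 0.09 against 0.00 over all genes. Of the 8, 0 were called by limma, with 0 genes at an unadjusted p under 0.05, against 0.00630% of all genes called and 7.26% at an unadjusted p under 0.05. The number of the 8 that were higher was 3 without WT-Low-411, so the sign count rested on that array.

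Nqo1 read 6.33, 6.82, 6.66 and 6.81 in Atg7KO-Low-356, Atg7KO-Low-353, Atg7KO-Low-387 and Atg7KO-Low-386, against 6.64, 6.40, 6.00 and 6.54 in WT-Low-341, WT-Low-407, WT-Low-409 and WT-Low-411. The groups overlapped, and the difference was 0.26 (95% CI -0.11 to 0.63). Gclm read 7.02, 6.45, 7.55 and 7.01 in Atg7KO-Low samples, against 7.05, 7.03, 6.13 and 6.61 in WT-Low samples. Both groups spread over about 1 log2 unit, and the difference was 0.30 (95% CI -0.19 to 0.80). Txnrd1 read 8.11, 8.07, 8.08 and 8.31 in Atg7KO-Low samples, against 8.06, 8.18, 8.28 and 7.95 in WT-Low samples. Its groups were tightly packed and overlapped throughout, with a difference of 0.03 (95% CI -0.23 to 0.29).

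Ugdh read 8.17, 7.50, 8.03 and 8.00 in Atg7KO-Low samples, against 8.30, 7.68, 7.08 and 8.18 in WT-Low samples, a difference of 0.12 (95% CI -0.47 to 0.70). Nfe2l2 read 9.96, 9.53, 9.58 and 9.99 in Atg7KO-Low samples, against 9.85, 9.92, 9.85 and 9.41 in WT-Low samples. The mean level of Nfe2l2 was 9.76 in both groups, and its difference was 0.00 (95% CI -0.35 to 0.36). Keap1 read 5.25 to 5.52 in Atg7KO-Low and 4.85 to 5.46 in WT-Low samples, Srxn1 5.99 to 6.47 in Atg7KO-Low and 5.66 to 6.46 in WT-Low samples, and Gclc 6.28 to 6.94 in Atg7KO-Low and 6.83 to 6.97 in WT-Low samples. Their differences were 0.13 for Keap1, 0.07 for Srxn1 and -0.13 for Gclc. The low end of Keap1, Srxn1 and Nfe2l2 in wild type was the same array, WT-Low-411, one of the 2 narrowest.

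Averaged over the gates, the 8 genes had a median difference of -0.15, and 8 of 8 were negative, against 52.7% of all genes. None was called, against 0.0252% of all genes, and 1 had an unadjusted p under 0.05, against 10.0%. That gene was Txnrd1, at -0.32 (SE 0.09, adjusted p = 0.335). Its exact permutation test, stratified by gate, gave p = 0.0614.

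Whether the knockout difference itself differed between the gates was tested as EGFP high minus EGFP low. It was negative for 7 of the 8 genes, against 52.9% of all genes, with a median of -0.57 against -0.03 over all genes. None was called, against 0.00630% of all genes, and Nqo1, Gclm and Txnrd1 had an unadjusted p under 0.05, against 8.49% of all genes lower at that level. Txnrd1 was at -0.69 (SE 0.19, adjusted p = 0.225), Gclm at -0.93 (SE 0.35, adjusted p = 0.285) and Nqo1 at -0.71 (SE 0.27, adjusted p = 0.281). A different knockout effect in the 2 gates was therefore not established for any of the 8 genes. This contrast, the knockout difference in EGFP high cells and the gate difference in the knockout all use the same 3 Atg7KO-High arrays, so they are not independent of each other.

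The second kind of comparison sets the stem cell gate against its progeny. Nqo1 was lower in EGFP high than in EGFP low cells of both genotypes, at 0.307-fold in the knockout and 0.503-fold in wild type. In the knockout Ugdh (0.413-fold) and Txnrd1 (0.679-fold) were lower as well. These were 3 of the 8 genes called lower in the knockout, where 6.44% of all genes were, and 1 of 8 in wild type, where 1.22% were. Arrays did not overlap, with EGFP high lower, for Nfe2l2, Keap1, Nqo1, Txnrd1 and Ugdh in the knockout, against 11.8% of all genes, and for Nqo1 in wild type, against 6.52%.

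The Nqo1 levels given above ran from 4.74 to 5.09 in Atg7KO-High and from 6.33 to 6.82 in Atg7KO-Low samples, a gap of more than 1 log2 unit. The difference was -1.71 (SE 0.19, adjusted p = 2.3e-04). In wild type Nqo1 ran from 5.17 to 5.69 in EGFP high and from 6.00 to 6.64 in EGFP low samples, and the difference was -0.99 (SE 0.19, adjusted p = 0.0141). Without WT-High-388 it was -0.87 (adjusted p = 0.0751) and without WT-High-411 it was -0.96 (adjusted p = 0.0684), so that call rested on those arrays. Over both genotypes the difference of Nqo1 was -1.35 (SE 0.13, adjusted p = 3.1e-05), and the exact permutation test within genotypes gave its smallest possible p, 8.2e-04. The knockout and averaged calls of Nqo1 held in all 26 and all 25 alternatives run. The mean level was 4.95 ± 0.18 in Atg7KO-High and 5.40 ± 0.26 in WT-High samples (SD, n = 3 each), and 6.65 ± 0.23 in Atg7KO-Low and 6.39 ± 0.28 in WT-Low samples (SD, n = 4 each). The order ran from Atg7KO-High over WT-High and WT-Low to Atg7KO-Low, and the 2 neighbours within each gate were not called apart.

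Ugdh ran from 6.05 to 7.16 in Atg7KO-High and from 7.50 to 8.17 in Atg7KO-Low samples. The groups did not overlap, and the difference was -1.27 (SE 0.29, adjusted p = 0.0140). Without Atg7KO-High-356 it was -0.97 (adjusted p = 0.0799), and with the array SD as a covariate -1.28 (adjusted p = 0.0844). In wild type Ugdh ran from 7.20 to 7.55 in EGFP high and from 7.08 to 8.30 in EGFP low samples, where the low gate covered the whole high range, and the difference was -0.42 (95% CI -1.05 to 0.21, adjusted p = 0.557). Averaged over the genotypes it was -0.85 (SE 0.21, adjusted p = 0.0164; exact permutation p = 0.00816).

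Txnrd1 ran from 7.49 to 7.75 in Atg7KO-High and from 8.07 to 8.31 in Atg7KO-Low samples, a clear gap, with a difference of -0.56 (SE 0.13, adjusted p = 0.0159). Without Atg7KO-High-356 it was -0.51 (adjusted p = 0.0695) and without Atg7KO-High-348 it was -0.52 (adjusted p = 0.0642). A further quantile normalization gave -0.37 (adjusted p = 0.0584), cyclic loess -0.39 (adjusted p = 0.0507), and the array SD as a covariate -0.43 (adjusted p = 0.132). In wild type Txnrd1 differed between the gates by 0.13 (95% CI -0.15 to 0.41). Over the 4 groups Atg7KO-High was lowest at 7.59 ± 0.14 (SD, n = 3), while the means of the other groups, 8.12 to 8.25, lay within their spread.

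Gclm was not called in the knockout, at -0.73 (SE 0.25, adjusted p = 0.0728), but was called without Atg7KO-Low-353 (-0.92, adjusted p = 0.0252) and, with its value unchanged, in the fit without WT-Low-409 (adjusted p = 0.0470). Nfe2l2 was at -0.50 (SE 0.18, adjusted p = 0.0861) and Keap1 at -0.35 (SE 0.18, adjusted p = 0.229). Srxn1 was at -0.31 and Gclc at 0.13. In wild type the same genes lay between -0.06 and 0.20, and none was called. The median of the 8 gate differences was -0.53 in the knockout and 0.06 in wild type, against 0.02 and 0.03 over all genes. Averaged over the genotypes, 2 of the 8 were called lower, Nqo1 and Ugdh, against 6.24% of all genes.

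**Figure D3:**
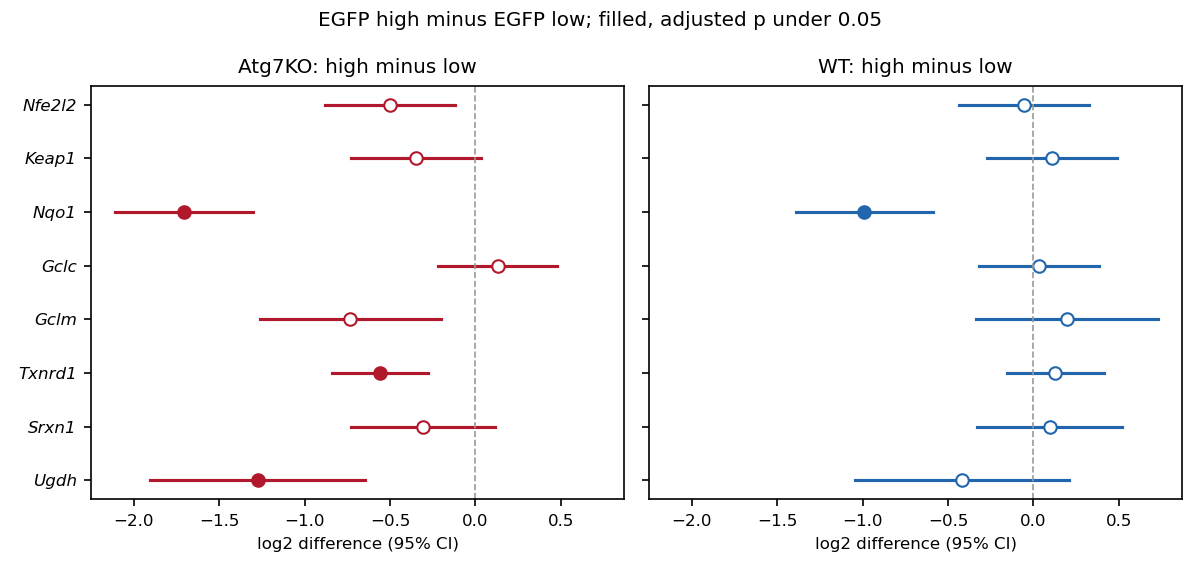
Log2 difference of EGFP high minus EGFP low for the 8 tested genes in the knockout (left) and in wild type (right); points are limma estimates, lines their 95% confidence intervals, and filled points were called at an adjusted p under 0.05. Nqo1 is filled on both sides, at -1.71 and -0.99, and Ugdh and Txnrd1 only in the knockout.

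The gates also differed in their cell markers. In the knockout 9 of 10 stem cell markers were called higher in EGFP high cells, where 4.48% of all genes were, and in wild type 10 of 10, where 1.22% were. Goblet cell markers averaged 8.39 to 10.3 in Atg7KO-High and 11.2 to 11.6 in Atg7KO-Low samples, and 9.90 to 10.4 in WT-High and 11.4 to 11.9 in WT-Low samples. They were called lower in EGFP high cells for 8 of 8 in the knockout, where 6.44% of all genes were, and 5 of 8 in wild type, where 1.22% were. Enterocyte markers averaged 8.16 to 8.35 in Atg7KO-High and 9.02 to 10.2 in Atg7KO-Low samples, with 6 of 10 called lower, where 6.44% of all genes were. In wild type they averaged 8.36 to 9.53 in EGFP high and 9.19 to 9.94 in EGFP low samples, with 0 of 10 called, where 1.22% of all genes were called lower. Enteroendocrine markers averaged 6.31 to 8.60 in Atg7KO-High and 8.77 to 10.0 in Atg7KO-Low samples, and 7.03 to 7.64 in WT-High and 8.80 to 9.68 in WT-Low samples. Paneth cell markers averaged 8.52 to 10.0 in Atg7KO-High and 9.80 to 10.7 in Atg7KO-Low samples, and 9.92 to 10.6 in WT-High and 10.4 to 11.4 in WT-Low samples. In the knockout 6 of 8 enteroendocrine and 4 of 7 Paneth cell markers were called lower in EGFP high cells, where 6.44% of all genes were. In wild type 4 of 8 enteroendocrine and 0 of 7 Paneth cell markers were called lower, where 1.22% of all genes were. Leukocyte, stromal, tuft and erythroid markers averaged 5.07 or less on every array. The part of the cell markers in the gate differences of Nqo1, Ugdh and Txnrd1 was not tested.

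Genes that act on NRF2 or share its sites were described next. Of 18 such partners and controllers, all tested, 0 were called between genotypes in either gate. Over all genes 0.0126% were called in EGFP high and 0.00630% in EGFP low cells. The medians of the 18 were -0.16 in EGFP high and -0.06 in EGFP low cells, against -0.03 and 0.00 over all genes. Sqstm1, the p62 gene, read 6.62, 6.76 and 7.00 in Atg7KO-High samples, against 7.17, 7.20 and 7.16 in WT-High samples. The groups did not overlap, and the difference was -0.38 (SE 0.14, adjusted p = 0.236). In EGFP low cells Sqstm1 read 7.28, 7.20, 7.42 and 7.51 in the knockout, against 7.42, 7.32, 7.25 and 7.17 in wild type, a difference of 0.06 (SE 0.12). The arrays measure the mRNA and not the p62 protein. Bach1, a repressor that competes for the same DNA sites, differed between genotypes by 0.10 in EGFP high and 0.07 in EGFP low cells without a call. Nfe2l1, the gene of the related factor NRF1, differed by -0.32 in EGFP high and -0.15 in EGFP low cells, also without a call.

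Between the gates of the knockout 2 of the 18 fell and 1 rose, where 6.44% of all genes were called lower and 4.48% higher. Sqstm1 was at -0.56 (adjusted p = 0.0171), a call lost without Atg7KO-High-356 (-0.47, adjusted p = 0.0852) or Atg7KO-High-348 (-0.54, adjusted p = 0.0622). Cdkn1a, the cell cycle inhibitor p21, which can bind NRF2, was at -2.33 (adjusted p = 1.4e-04), and was the only 1 of the 18 called in wild type, at -1.34 (adjusted p = 0.00884), where 1.22% of all genes were called lower. Btrc, a subunit of a second ligase that ubiquitinates NRF2, was at 0.68 (adjusted p = 0.0387), called in 17 of 26 alternatives. Averaged over the genotypes Sqstm1 (-0.34), Rbx1 (-0.50), a ring subunit of the CUL3 ligase, and Cdkn1a (-1.84) were called lower, as 6.24% of all genes were. Sqstm1 held that call in 15 and Rbx1 in 11 of 25 alternatives, whereas Cdkn1a held it in all 25.

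Other genes known as NRF2 targets were counted from a list of 41, of which 30 were tested, 5 were below the threshold on the arrays and 6 were not analysed here. In EGFP high cells 0 of the 30 were called between genotypes, where 0.0126% of all genes were. Of the 30, 22 were lower in the knockout and the median was -0.16, against 53.8% lower and a median of -0.03 over all genes. At an unadjusted p under 0.05, 3 of the 30 were lower, near the 9.88% of all genes. Idh1, the cytosolic NADP-dependent isocitrate dehydrogenase, was at -1.12 (SE 0.23, adjusted p = 0.131), Taldo1, transaldolase, at -0.64 (SE 0.20, adjusted p = 0.184) and Tkt, transketolase, at -0.61 (SE 0.19, adjusted p = 0.185). In EGFP low cells 0 of the 30 were called, where 0.00630% of all genes were. Of the 30, 24 were higher in the knockout and the median was 0.13, against 50.3% higher and a median of 0.00 over all genes. The mean level of the 35 listed genes on the arrays was 6.39 in WT-Low-411, one of the 2 narrowest arrays, and 6.67 to 6.90 in the other WT-Low samples. It was 6.69 to 6.97 in Atg7KO-Low samples. The sign count of the 30 without WT-Low-411 was not examined. The aldo-keto reductase gene Akr1c13 was at 0.55 (SE 0.18, adjusted p = 0.567). The knockout effect differed between the gates with a call for 0 of the 30, where 0.00630% of all genes were called. The median was -0.37, against -0.03 over all genes, and Idh1 was at -1.38 (SE 0.31, adjusted p = 0.176).

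Between the gates of the knockout 6 of these 30 fell and 0 rose, where 6.44% of all genes were called lower and 4.48% higher. They were the glutathione transferases Gstm3 (-2.00, adjusted p = 0.00236) and Gsta4 (-1.84, adjusted p = 0.00275), and Idh1 (-1.53, adjusted p = 9.5e-04), Akr1c13 (-1.11, adjusted p = 0.00314), Taldo1 (-0.70, adjusted p = 0.0302) and Pgd (-0.93, adjusted p = 0.04998). The first 4 were called in all 26 alternatives, Taldo1 in 17 and Pgd, 6-phosphogluconate dehydrogenase, in 8. In wild type only Gsta4 was called, at -1.43 (adjusted p = 0.0278), where 1.22% of all genes were called lower, and it was called in 21 of 26 alternatives. Averaged over the genotypes Gsta4, Gstm3, Aldh1a1, Akr1c13, Idh1 and Me1 were called lower, at -1.64, -1.35, -1.01, -0.87, -0.84 and -0.73, where 6.24% of all genes were. Ephx1, microsomal epoxide hydrolase, was called higher at 0.79, where 5.75% of all genes were. The call was held in 21 of 25 alternatives for Aldh1a1, 16 of 24 for Me1 and 23 of 25 for Ephx1.

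**Figure D4:**
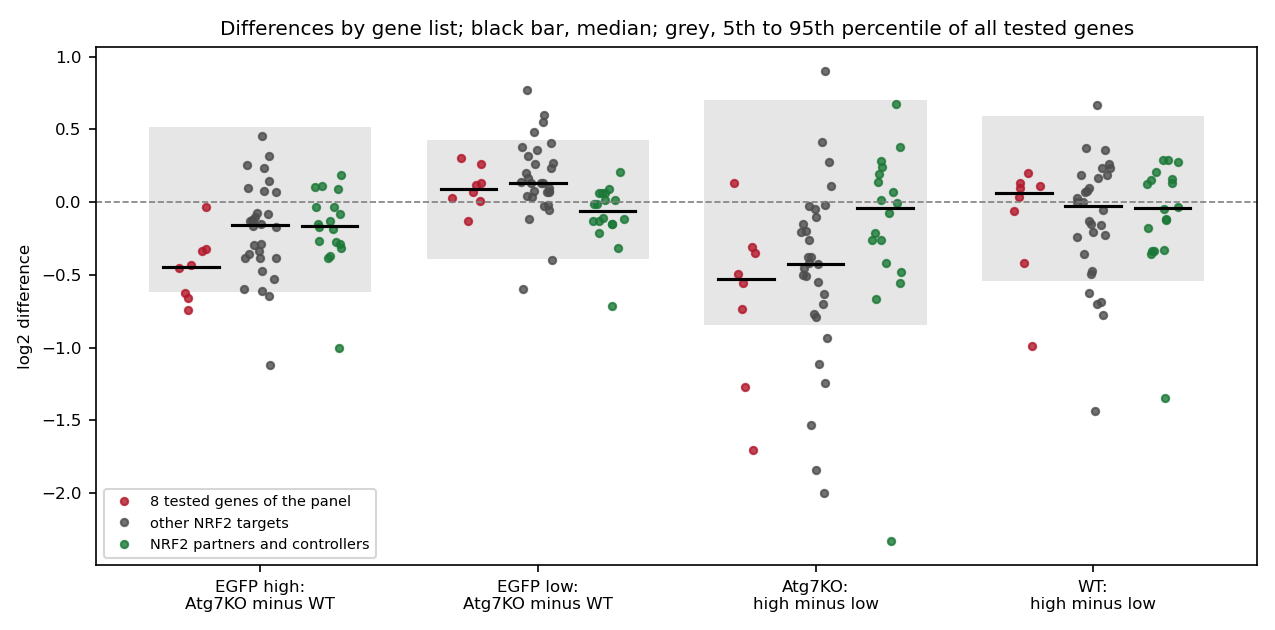
Log2 differences of the 8 tested genes (red), the other NRF2 targets (grey, n = 30) and the NRF2 partners and controllers (green, n = 18) in 4 comparisons; each point is a gene, black bars are list medians and the pale bands run from the 5th to the 95th percentile of all 15873 tested genes. In the knockout gate comparison the red median is -0.53 and the grey median -0.42, against 0.06 and -0.03 in wild type.

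Slc7a11 is also driven by ATF4, the factor of the amino acid and stress response, and 13 of 14 listed ATF4 targets were tested. Between genotypes 0 of the 13 were called in either gate, where 0.0126% of all genes were in EGFP high and 0.00630% in EGFP low cells. The medians of the 13 were -0.13 in EGFP high and 0.01 in EGFP low cells, against -0.03 and 0.00 over all genes. Between the gates 2 of the 13 were called lower in the knockout, where 6.44% of all genes were, and 2 in wild type, where 1.22% were. Slc3a2, the partner chain that Slc7a11 needs at the cell surface, fell between the gates of the knockout by a difference of -0.93 (adjusted p = 0.0213), a call lost without Atg7KO-High-356 (-0.59, adjusted p = 0.0942) or Atg7KO-Low-386 (-0.89, adjusted p = 0.0552). Nupr1, a stress-induced chromatin factor, was lower in EGFP high cells of the knockout (-2.29, adjusted p = 0.00523) and of wild type (-2.18, adjusted p = 0.0195), the second call held in 22 of 26 alternatives. Vldlr, a lipoprotein receptor, was called lower in wild type (-1.11, adjusted p = 0.0267), in 19 of 25 alternatives. Averaged over the genotypes 3 of the 13 were called lower, where 6.24% of all genes were. Among them Atf4 itself was at -0.41 (adjusted p = 0.0191), called in 23 of 25 alternatives.

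The 10 genes did not vary as a block. Over the 14 arrays Nfe2l2 and Srxn1 correlated at r = 0.88, and at 0.92 once the 4 group means were removed. Nfe2l2 and Txnrd1 correlated at 0.80, and at 0.63 after removal of the group means. Nqo1 and Ugdh correlated at 0.77, but at 0.21 after removal, so that relation lay between the groups. Gclc was close to unrelated to Gclm at -0.01, and its lowest array was Atg7KO-Low-386 at 6.28. All these points share the arrays and their spread, and they are given as a description.

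The mean level of the 8 target genes, Hmox1 and Slc7a11 included, was 5.43, 5.61 and 5.69 in Atg7KO-High-356, Atg7KO-High-348 and Atg7KO-High-386, against 5.91, 5.93 and 5.95 in WT-High-388, WT-High-411 and WT-High-412. It was 6.16, 6.02, 6.20 and 6.19 in Atg7KO-Low-356, Atg7KO-Low-353, Atg7KO-Low-387 and Atg7KO-Low-386, against 6.23, 6.09, 5.88 and 6.04 in WT-Low-341, WT-Low-407, WT-Low-409 and WT-Low-411. The 3 Atg7KO-High samples were the lowest of the 14, and the wild-type groups of the 2 gates overlapped. The genes outside the panel whose levels were most like this mean over the arrays were Ubfd1 (r = 0.963), Sqstm1 (0.953), Fuca2 (0.945), Atp6v1a (0.945) and Reg3a (0.945). After removal of the group means they were Gstm2 (0.932), Lmna (0.907), Eci1 (0.896), Btbd1 (0.880) and Fastkd5 (0.878). These genes are the highest of a search over the tested genes, predicted genes left out, so their r values are a description and carry no test.

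**Figure D5:**
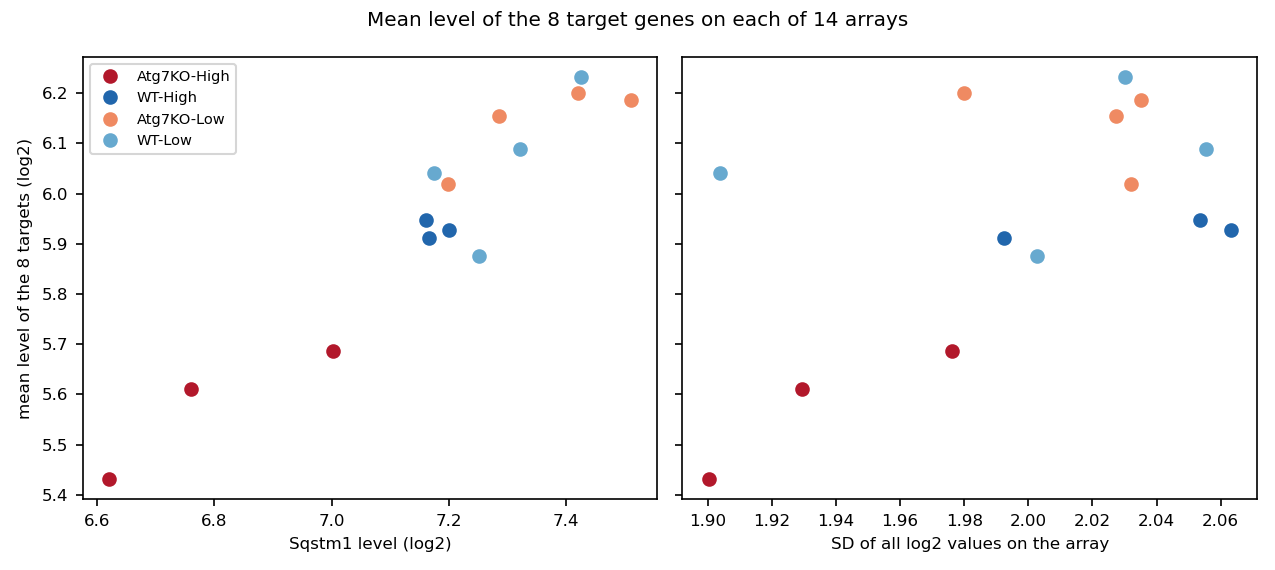
Mean log2 level of the 8 target genes on each of the 14 arrays, against the log2 level of Sqstm1 (left) and against the SD of the log2 values within each array (right); colours are the 4 groups. The 3 Atg7KO-High arrays, 5.43 to 5.69, are the lowest on the vertical axis and also the lowest for Sqstm1, 6.62 to 7.00, and Atg7KO-High-356 is among the 2 narrowest arrays.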

How the data were processed

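The deposited values are on a log2 scale, 1 for each probe set and array; per the submitters' processing notes the authors used RMA in Affymetrix Expression Console. RMA corrects background, quantile normalizes and summarises probes, which can narrow large differences. Their versions and the grouping of probes: not given in the sources used here. Per the labels' protocols, amplification started from 1 ng of total RNA. Of 25429 probe sets, 754 had no gene symbol and were left out.

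Group means were fitted over 14 arrays with limma 3.58.1 (R 4.3.3; lmFit, eBayes), without a block, leaving 10 residual degrees of freedom, for 7 contrasts. P-values are two-sided and adjusted by Benjamini-Hochberg over 15873 genes; limma's adjusted p is the one printed. Single genes were also tested by exact permutation of samples. A limma p-value sets a group difference against the variation between these samples within groups. A permutation p-value is the share of label arrangements with a difference at least as large. The fit was tested on simulated data. The 10 genes and all gene lists were chosen with earlier results of these data known. Named genes are the 10, Atg7, Lgr5, Sqstm1, Bach1, Nfe2l1, each list's called genes (up to 6 per comparison) or its smallest p, and the 5 most correlated genes; Tkt and the correlated pairs were picked after their values were seen. Promoter sequences are from RefSeq (GRCm38.p6); protein sequences were not used here.

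Alternatives were the filter, scaling (median, quantile, cyclic loess), eBayes with trend, only the groups compared, array weights, a replicate block, the array SD or Y-linked signal as a covariate, leaving out the 2 narrowest arrays, and leaving out each sample.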

Additional observations from a re-analysis of the deposited data

Results flagged for a closer look

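Among 20 groups of 4 samples examined for the 10 genes, 3 held a sample far from its group by Dixon's test, which chance alone gives in about 1 in 20 groups. Nfe2l2 read 9.41298 in WT-Low-411, against 9.85 to 9.92 in the other WT-Low samples, and that array was also 1 of the 2 narrowest. Gclc read 6.28398 in Atg7KO-Low-386, against 6.89 to 6.94 in the other Atg7KO-Low samples, and was the lowest of the 14 arrays. Txnrd1 read 8.31044 in the same Atg7KO-Low-386, against 8.07 to 8.11 in the other Atg7KO-Low samples.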

How the results depend on the processing

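Over the alternatives run for the 8 tested genes, 1367 of 1432 values kept their direction and their side of the threshold, 12 lost a call, 3 gained one and 50 uncalled values changed sign. Most of the 1432 values were uncalled in the main fit and had no call to lose. The main calls were 3 between the gates of the knockout, 1 in wild type and 2 averaged over the genotypes. With array weights 1 of the 8 genes was called between genotypes in EGFP high cells, Txnrd1 at -0.64 (adjusted p = 0.0243), as 703 genes were in all. A fit with the array SD as a covariate gave a median of -0.23 in that comparison, -0.30 between the gates of the knockout, where 1 of the 8 genes (Nqo1) was called, and -0.27 for the knockout effect in EGFP high minus that in EGFP low cells. Over all genes the calls between the gates of the knockout fell from 1734 in the main fit to 495 with this covariate. Without the 2 narrowest arrays 1 of the 8 genes was called between the gates averaged over the genotypes, since Ugdh was at -0.63 (adjusted p = 0.0611). Over all genes that fit called 1737 in this comparison, against 1902 in the main fit. Leaving out each sample gave 1 to 4 genes called between the gates of the knockout and 0 to 1 in wild type. Fitting only the groups compared left Txnrd1 uncalled between the gates of the knockout (adjusted p = 0.0567). The fit with a replicate block on the title number (correlation 0.0732) gave 3 called genes of the 8 in the knockout gate comparison, where 1965 of all genes were called. Its median was -0.45 between genotypes in EGFP high cells, and it changed no call of the 8 genes. Deviations from the group means correlated at 0.115, 0.182 and -0.0403 for the 3 shared numbers. With so few samples per group these values cannot show whether a shared number names the same mouse. The main fit used no block because the labels do not state it. Causes of these changes were not tested. With 3 samples per EGFP high group, differences under about 1 log2 unit often cannot be called.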
